A study of Arabidopsis thaliana with 22 samples.

Results

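In Arabidopsis thaliana, 419 regions carried trimethylation of histone H3 lysine 27 (H3K27me3) in shoot apices of ap1 cal 35S::AP1-GR plants and in neither wild-type rosette leaves nor wild-type inflorescences. They were selected on the presence of the mark: a 200-bp window was kept when it lay inside an enriched island of all 4 apex libraries and of none of the 4 leaf and inflorescence libraries. Adjacent windows were joined, and regions of 400 bp or more were retained. The 419 regions summed to 368000 bp. The stretches marked in any library numbered 8774, and those of 400 bp or more marked in all 4 apex libraries numbered 7613. Of the 98249 windows marked in all 4 apex libraries, 1840 (1.87%) fell in these regions. H3K27me3 values below therefore describe the choice and were not tested, whereas H3K4me3 was not used to choose the regions.

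The data were chromatin immunoprecipitation with sequencing (ChIP-seq) of H3K27me3 and H3K4me3 at 4 stages, with 2 biological replicates per stage and mark. Leaf was rosette leaves of flowering wild-type Ler plants. Apex t0 was untreated cauliflower structures of the main inflorescence of ap1 cal 35S::AP1-GR, a line in the same Ler background, and apex t2 was the same tissue 2 days after 10 µM dexamethasone. Inflorescence was the main inflorescence of wild-type Ler with older flowers removed. The ap1 cal double mutant piles up inflorescence meristems in place of flowers. The AP1-GR fusion, driven by the broadly active 35S promoter, enters the nucleus on dexamethasone, which starts flower formation. Apices thus differed from leaf and inflorescence in genotype and tissue, in chromatin input (15 against 10 µg per reaction) and in the control library. These cannot be told apart in any comparison across that line.

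H3K27me3 is deposited by Polycomb repressive complex 2 and marks genes held silent in a given cell type. In plants it spreads over whole gene bodies and is known for keeping developmental regulators off outside their tissue. H3K4me3 sits over the starts of transcribed genes and is commonly read as the opposing mark. In tissue of many cell types both marks can be recovered at one locus from different cells, and a smaller share of marked cells cannot be told apart from a weaker mark in every cell.

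Reads inside H3K27me3 islands ranged from 3779918 to 19379225 per library, and reads inside H3K4me3 islands from 6635471 to 23673881. Leaf replicate 2 (18622099 reads) and inflorescence replicate 2 (19379225) were deeper for H3K27me3 than every apex library (9996825 to 16231141), whereas leaf replicate 1 (4995796) and inflorescence replicate 1 (3779918) were shallower. Of the windows marked in all 4 apex libraries, inflorescence replicate 2 covered 96.1% and inflorescence replicate 1 covered 75.1%. The number of regions rested on inflorescence replicate 2: without it 1336 regions met the rule, whereas leaving out any other library gave 426 to 519. H3K4me3 was read over marker genes of the tissues. Of 15 meristem and boundary genes tested, 12 were higher in apices than in leaf and inflorescence (STM and KNAT1 among them) and 0 were lower. Of 23 photosynthesis genes 9 were lower and 0 higher. Over all genes tested, 3.08% were higher and 4.37% lower. Of 7 floral organ identity genes and 2 root genes tested, 0 differed in that comparison, but these lists are too small for that to be informative. Of 3 anther and pollen wall genes tested, also taken as inflorescence markers, 1 (LAP6) was higher in apices and 0 were lower. Of the 143 genes in 11 lists, 4 lay on the regions, against 0.714% of all 27444 protein-coding genes. They were 2 from photosynthesis, 1 from leaf differentiation and 1 from the stomatal lineage. No gene of the polycomb, flowering repressor, flowering activator, meristem, floral organ, light-response bHLH, anther or root lists lay on a region. At that share of all genes, lists of this size would mostly hold none.

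Widths ran from 400 to 4000 bp with a median of 600 bp, against a median of 1800 bp for all stretches marked in the 4 apex libraries, and 28 regions reached 2000 bp. Regions set by other patterns of presence and absence had like medians: 800 bp for those absent only from apices, 800 bp for those absent only from leaf and 600 bp for those found only in leaf. At the width limit, the 94 regions of 400 bp lay in apex islands with a median enrichment over control of 2.89-fold, and the 242 excluded regions of 200 bp in islands of 3.21-fold; these folds are the authors' own values per island. In 155 regions (37.0%) the apex islands touched no leaf or inflorescence island, so that the whole island was apex-only. In 236 regions (56.3%) all 4 apex islands touched an island of leaf or inflorescence, so that the region was a widening of a domain marked elsewhere, and in 28 the apex libraries differed. The separate regions were wider, with a median of 800 bp against 600 bp for the widenings.

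**Figure D1:**
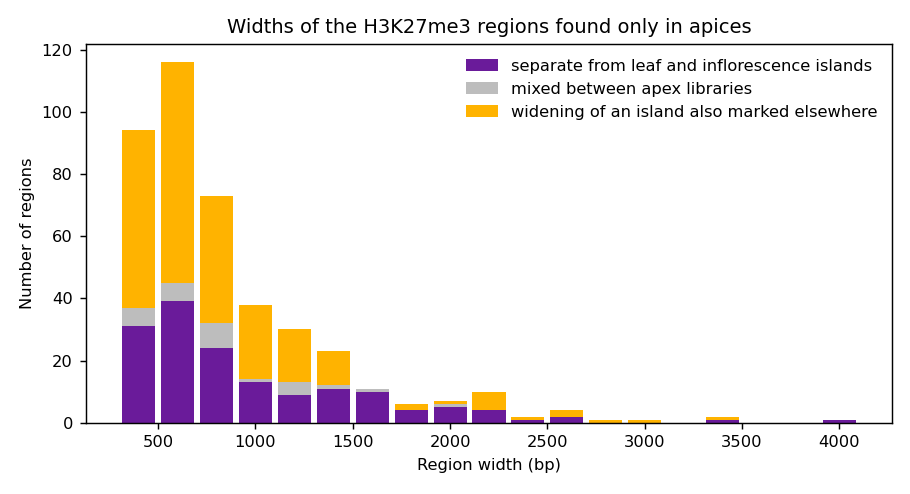
Number of regions (vertical axis) at each width in bp (horizontal axis), stacked by whether the apex islands were separate from leaf and inflorescence islands (155 regions), widenings of them (236) or mixed (28). Most regions were under 1000 bp wide, and the single region of 4000 bp was a separate one.

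The apex islands that held the regions were less enriched than apex islands in general. Their median fold over control was 2.55 and 2.77 in the apex t0 replicates against 3.33 and 3.09 for all islands of those libraries, and 2.66 and 2.70 against 3.43 and 3.12 at apex t2. Between 388 and 397 islands per library held a region, which was 4.88% to 5.15% of its islands. The control reads under them, 221 to 243 per kb, lay within 10 reads per kb of the level under all apex islands of the same library, 224 to 252.

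Fewer regions met a protein-coding gene than did apex H3K27me3 as a whole, whose stretches were wider (median 1800 bp against 600 bp). The part of width in this was not tested. In all, 227 regions (54.2%) touched one, against 80.6% of the stretches marked in all 4 apex libraries, and 157 (37.5%) touched no annotated gene of any kind. In the converse set, the 363 regions marked in all leaf and inflorescence libraries and in no apex library, 54.8% touched a protein-coding gene. Their median width was 800 bp. Long non-coding RNA genes were touched by 25 regions, pseudogenes by 14 and transcribed pseudogenes by 10.

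The widest region, 4000 bp on chromosome 2 from 15095001 to 15099000 (TAIR10), was separate from other islands, held no annotated gene and no H3K4me3 in any library, and lay between BLH1, a BELL homeobox gene, and EDA12. In all, 21 regions were 2200 bp or wider, 10 of them exactly 2200 bp, and 8 of the 21 touched no protein-coding gene. One of 3400 bp on chromosome 3 from 4453201 to 4456600, over a transcribed pseudogene, lay next to PUT4. A region of 2800 bp on chromosome 3 from 17554601 to 17557400 lay next to TCP14, a TCP transcription factor gene. One of 2600 bp on chromosome 5 from 3505201 to 3507800 lay between MYB64 and KNAT4, a KNOX homeobox gene. A region of 2200 bp on chromosome 2 from 9701001 to 9703200 lay next to HAT9, a homeodomain-leucine zipper gene. None of these 4 held H3K4me3 in any of the 8 libraries. Of the 8, the others were 2200 bp wide and lay between LNG2 and SP1L3 on chromosome 3, next to DEAR3 on chromosome 2, and between AT4G29310 and DER1 on chromosome 4. A region of 2200 bp on chromosome 1 from 28871001 to 28873200, which touched 149 bp of GT2, a trihelix transcription factor gene, held 200 bp of H3K4me3 in each leaf and inflorescence library and none in apices.

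The widest region over genes, 3400 bp on chromosome 3 from 9639401 to 9642800, lay on 2 adjoining cytochrome P450 genes, CYP71B34 and CYP71B35, between CYP71B26 and CYP71B36. It covered 77.3% of the CYP71B34 body and 100% of CYP71B35, in apex islands with a median fold over control of 1.78. These tandem copies are close in sequence, and reads may be shared between them. H3K4me3 islands covered 1800 to 3200 bp of this region in every library, so both marks were recovered there from apices. Both H3K4me3 levels were tested: CYP71B34 differed between apices and the wild-type tissues by -0.57 ± 0.13 (log2, SE) with a limma adjusted p of 0.0564, and of 0.0381 with the replicate number as a block. CYP71B35 differed by -0.41 ± 0.35 (limma adjusted p = 0.563).

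The remaining wide regions lay over genes that mostly lack a symbol. On chromosome 4 from 14437001 to 14439600 a separate region of 2600 bp covered 93.6% of AT4G29310, and on chromosome 4 from 13505601 to 13508000 one of 2400 bp covered 88.0% of AT4G26870. On chromosome 1 a region of 3000 bp from 23711401 to 23714400 lay on AT1G63870 and AT1G63880, and one of 2600 bp from 7258801 to 7261400 covered 95.0% of AT1G20870. H3K4me3 at AT4G29310 was high in every library, with 126 and 87.0 RPM in leaf, 165 and 153 at apex t0, 144 and 133 at apex t2, and 141 and 114 in inflorescence. Its groups overlapped, and apices differed by 0.36 ± 0.15 (limma adjusted p = 0.250). FP3, a farnesylated metal-binding protein gene, lay under 2 separate regions on chromosome 5, one of 2400 bp from 25431201 to 25433600 (24.1% of the body) and one of 2200 bp from 25434201 to 25436400 (55.5%). Its H3K4me3 differed by -0.28 ± 0.41 (limma adjusted p = 0.745). On chromosome 2 a region of 2600 bp from 18069201 to 18071800 lay on TI2, a trypsin inhibitor gene, AT2G43530 and AT2G43535. TI2 had H3K4me3 of 11.0 and 15.5 RPM at apex t0, 7.99 and 0 at apex t2 and none in the other 4 libraries (limma adjusted p = 0.112). On chromosome 2 from 9792401 to 9794600 a region of 2200 bp covered 51.9% of scpl10, a serine carboxypeptidase-like gene, whose H3K4me3 was listed in 5 of 8 libraries.

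Genes with at least 200 bp of their body in the regions numbered 196 of 27444 protein-coding genes (0.714%). The regions covered 3.39% to 100% of these bodies, with a median of 33.2%. In 122 of the 196 no leaf or inflorescence H3K27me3 island lay anywhere on the body, and in the other 74 the mark was present on another stretch of the gene. H3K27me3 was read as RPM, the island reads falling in the gene body per 1000000 such reads on genes of the library. Its median over the 196 genes was 56.8 and 72.7 RPM at apex t0 and 64.3 and 69.8 at apex t2. The median was 0 in each leaf and inflorescence library, since an island was listed on only 28 and 31 genes in leaf and 42 and 60 in inflorescence. A gene without an island lay under the authors' threshold, which is no measured absence.

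H3K4me3 was more frequent on these regions than on apex H3K27me3 in general. Its islands covered 18.6% and 22.5% of region length in leaf, 15.8% and 20.5% at apex t0, 15.7% and 16.7% at apex t2, and 19.4% and 19.5% in inflorescence. Over all apex H3K27me3 the share was 5.55% to 9.34%. In the shallower replicate 1 libraries both apex stages lay under leaf and inflorescence, whereas in replicate 2 apex t0 lay above inflorescence, so the shares overlapped between the groups. By regions, 106 and 125 held at least 200 bp of H3K4me3 in leaf, 88 and 112 at apex t0, 94 and 97 at apex t2, and 104 and 105 in inflorescence. In 270 regions (64.4%) no library did, and in 68 (16.2%) all 8 libraries did.

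**Figure D2:**
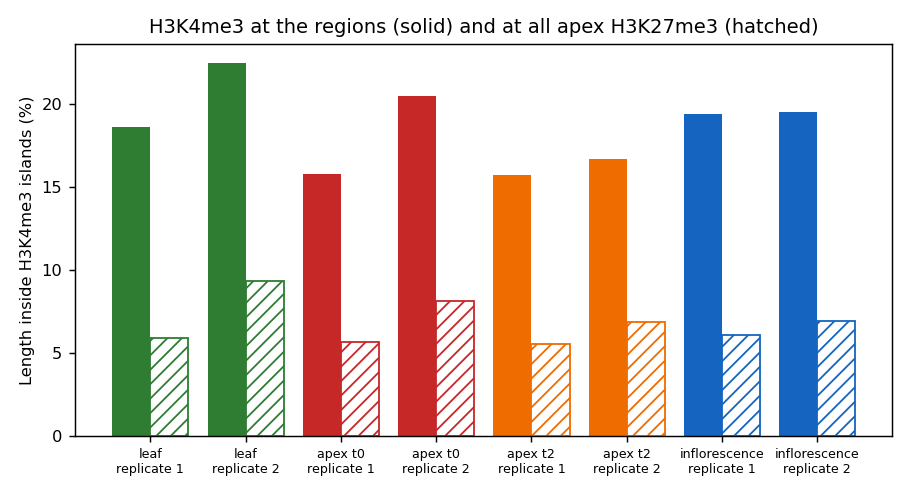
Percentage of length inside H3K4me3 islands (vertical axis) in each of the 8 H3K4me3 libraries, for the 419 regions (solid bars) and for all windows with H3K27me3 in the 4 apex libraries (hatched bars); colours mark the stages. The solid bars run from 15.7% to 22.5% and exceed the hatched bars, 5.55% to 9.34%, in every library.

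In 6 regions H3K4me3 lay in all 4 leaf and inflorescence libraries and in no apex library, so that each stage had islands of 1 mark alone there. In 3 regions it lay in all 4 apex libraries and no other, so that apices held both marks and the wild-type tissues neither. Of the 516 region windows with H3K4me3 in any library, 17 (3.29%) had it in leaf and inflorescence only, against 0.758% of all such windows in the genome, and 11 (2.13%) in apices only, against 1.23%. The H3K4me3 islands on the regions were also weaker in apices relative to the library: their median fold was 3.04 and 3.20 at apex t0 against 4.35 and 4.14 for all islands, and 3.12 and 2.54 at apex t2 against 4.46 and 3.39. In leaf it was 5.66 and 4.05 against 5.60 and 4.07, and in inflorescence 4.38 and 2.54 against 5.07 and 2.82.

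At the genes on the regions, H3K4me3 was lower in apices than in leaf and inflorescence. Of the 196 genes, 148 had H3K4me3 in both replicates of some stage and were tested. With limma and Benjamini-Hochberg adjustment over all 17588 genes tested, 36 were lower in both apex stages together than in leaf and inflorescence, where 4.37% of all genes were lower, and 4 were higher, where 3.08% of all genes were. In either direction 40 of the 148 were called, against 7.45% of all genes tested. With the replicate number as a block, 57 were called (53 lower), and 11.8% of all genes. The median difference was -0.58 (log2) over the 148 and -0.00 over all genes. Since a gene could enter the test through the tissue where it was high, the 100 genes with H3K4me3 in all 8 libraries were also counted alone, a subset set after seeing the data. Of these, 26 were lower and 0 higher, against 2.98% lower among all 14666 such genes. In 36 of the 100 all 4 apex values lay below all 4 leaf and inflorescence values, against 6.68% of all such genes, and in 0 all 4 lay above, against 4.27%. The median difference over the 100 was -0.50, with 88 negative, against -0.01 over all 14666.

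**Figure D3:**
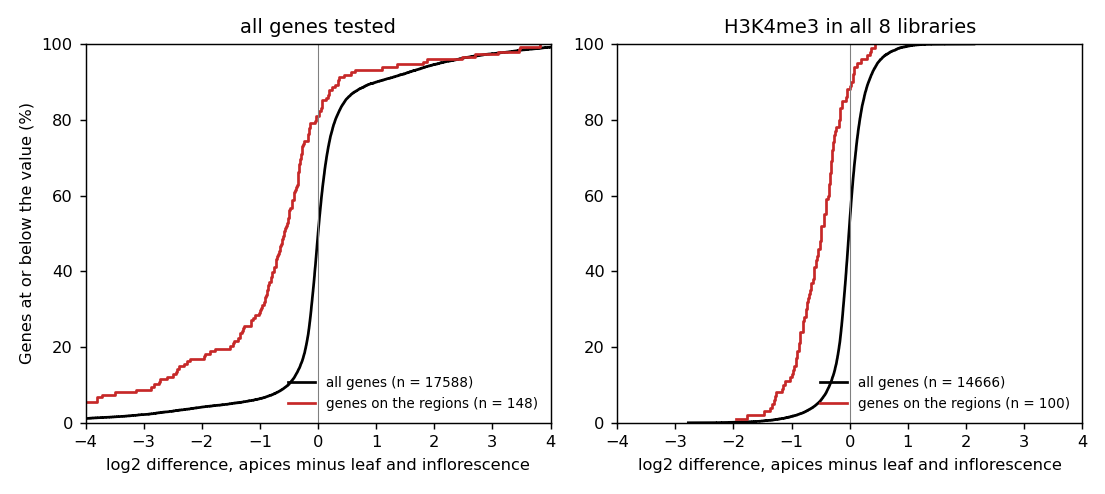
Cumulative percentage of genes (vertical axis) at or below each log2 difference in H3K4me3, apices minus leaf and inflorescence (horizontal axis, shown from -4 to 4), for genes on the regions (red) and all genes (black). The left panel shows the 148 and 17588 genes tested and the right panel the 100 and 14666 with H3K4me3 in all 8 libraries; the red curve lies left of the black one around the medians, -0.58 against -0.00 and -0.50 against -0.01.

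The number of calls depended on single libraries. It fell to 22 without leaf replicate 1, 19 without apex t0 replicate 1, 12 without apex t2 replicate 1, 16 without apex t2 replicate 2 and 23 without inflorescence replicate 1, and calls over all genes fell as well, to 1.87% in the smallest case. Without leaf replicate 2 it rose to 50, with 16.4% of all genes called. Of the 100 genes marked throughout, 5 were lower without apex t2 replicate 1, 9 without apex t0 replicate 1 or apex t2 replicate 2, 11 without leaf replicate 1 or inflorescence replicate 1, 19 without apex t0 replicate 2 or inflorescence replicate 2, and 35 without leaf replicate 2. Of all 14666 such genes at most 4.96% were lower in these fits. The median over the 100 genes stayed between -0.59 and -0.42 whichever library was left out. RLP34 stayed between -6.75 and -6.06 (log2) and BGAL2 between -4.95 and -4.76 whichever library was left out. Neither had an apex island, so both could enter the test only through leaf or inflorescence. Their stability is therefore no independent support.

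Genes with and without H3K27me3 in the wild-type tissues showed the difference. Among the 94 tested genes without any leaf or inflorescence H3K27me3, 24 were lower and 3 higher, and among the 54 others 12 were lower and 1 higher, with a median of -0.58 in each; of all genes 4.37% were lower and 3.08% higher. With the tested genes ordered by the share of the body in regions, 12 of the 49 with the smallest share, 15 of the next 49 and 9 of the 50 with the largest share were lower, with medians of -0.62, -0.50 and -0.56. Of the 36 lower genes, 26 had H3K4me3 in all 8 libraries and 10 had no apex island. The 10, RLP34 and BGAL2 among them, could enter the test only through leaf or inflorescence. In the 26, islands covered a median of 65.3% of the body in leaf and inflorescence and 49.0% in apices, which describes the same island values that gave the calls. In the converse set, 78 of 171 genes were tested. Of these, 23 were higher and 1 lower in apices, with a median of 1.77, against the same shares of all genes. Genes of that set could enter the test through the apices, the tissue where they could be high. They were not also counted by H3K4me3 in all 8 libraries, so their count is a description.

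Each apex stage was also compared with a wild-type tissue. Of the 148 genes, 29 were lower at apex t0 than in leaf, against 4.25% of all genes, and 32 were called in all, against 8.05% (45 with the replicate block, against 13.6%). Without apex t0 replicate 1 nearly all of these calls were lost, and the share called was then close to that of all genes. Without leaf replicate 1 or either apex t2 replicate, calls fell on these genes and over all genes. The share on these genes stayed above that of all genes there. At apex t2 against inflorescence 7 were lower, against 0.751% of all genes, and 8 were called, against 1.17% (6 with the block, against 0.722%). The calls of that comparison on these genes were lost when any library but leaf replicate 1 was left out. Nearly all of its calls over all genes were lost with them. Without leaf replicate 1 some remained in both. Between apex t2 and apex t0 no gene was called with limma, 0 of 148 and 0% of all genes, with or without the block. At an unadjusted p under 0.05 there were 4 genes, against 0.881% of all. These comparisons share libraries with the joint one and are no independent evidence.

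RLP34, a receptor-like protein gene of a family with members in immune recognition, had 17.2% of its body in a region. Its H3K4me3 was 163 and 116 RPM in leaf, 82.4 and 31.4 in inflorescence, and no island was listed in any of the 4 apex libraries. Its H3K27me3 was 35.5 and 32.8 RPM at apex t0 and 35.2 and 60.0 at apex t2, with none listed in the wild-type tissues. No stage had listed islands of both marks on this gene. H3K4me3 in all 4 leaf and inflorescence libraries and in no apex library was listed at 7 of the 196 genes, tested or not, against 0.386% of all 27444 genes. The converse was listed at 2, against 0.474%. The call at RLP34 (limma adjusted p = 0.00285) ended when only islands of fold 2 or more were used. RLP34 could enter the test only through leaf or inflorescence, so its p-value is no independent support.

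BGAL2, a beta-galactosidase gene of cell wall metabolism, was another of the 7. Its H3K4me3 was 58.3 and 45.8 RPM in leaf and 13.2 and 17.2 in inflorescence, with no apex island (limma adjusted p = 0.00374, lost with islands of fold 2 or more). As at RLP34, the p-value is no independent support. H3K27me3 reached 125 to 219 RPM in apices, and inflorescence replicate 2 also listed 90.6 RPM on another stretch of the body. H3K4me3 was lower in inflorescence than in leaf, and H3K27me3 was listed in 1 of 2 inflorescence libraries and in no leaf library.

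Further genes were marked by H3K4me3 in a single tissue. GRF11, a 14-3-3 protein gene, had 92.7% of its body in a separate region of 2200 bp on chromosome 1 from 12743401 to 12745600, with H3K27me3 of 70.3 to 112 RPM in apices. Its H3K4me3 was 24.9 and 37.7 RPM in leaf and was listed in no apex or inflorescence library (limma adjusted p = 0.0325). NDA1, a mitochondrial alternative NAD(P)H dehydrogenase gene, likewise had 25.8 and 48.1 RPM in leaf and none elsewhere (limma adjusted p = 0.0325). RXF26 had 24.2 and 34.0 RPM in inflorescence and none in the other 6 libraries (limma adjusted p = 0.0331). In each of these genes the apices and 1 wild-type tissue had no H3K4me3 island. Each entered the test only through the tissue that was marked, so its p-value is no independent support. The difference is from the mean of both wild-type tissues, and the apices equalled the unmarked one. The calls at GRF11 and NDA1 ended without any 1 of the 8 libraries, that at RXF26 without any except inflorescence replicate 1, and all 3 without the filter on genes.

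Photosynthesis was represented by RBCS3B, a Rubisco small subunit gene, and CAB2, a light-harvesting chlorophyll a/b-binding protein gene. RBCS3B had H3K4me3 of 127 and 94.7 RPM in leaf, 59.4 and 59.5 at apex t0, 48.0 and 45.2 at apex t2, and 107 and 88.0 in inflorescence. All 4 apex values lay below the other 4, a difference of -0.96 ± 0.12 (limma adjusted p = 0.00807, lost without either apex t2 replicate). Its H3K27me3 was 126 to 129 RPM in apices, 31.9 in inflorescence replicate 2 and not listed in the other 3 libraries. It stands in a tandem cluster of similar RBCS genes, so the counting may split reads among copies.

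CAB2 had 87.1% of its body in a region, with H3K27me3 of 36.7 to 42.3 RPM in the apex libraries and none listed elsewhere. The apex islands that held this region were weakly enriched, with a median fold over control of 1.46. Its H3K4me3 was 37.3 and 64.0 RPM in leaf, 24.5 and 23.4 at apex t0, 15.8 and 25.9 at apex t2, and 22.9 and 53.3 in inflorescence. Inflorescence replicate 1 overlapped the apices, and the difference of -0.88 ± 0.35 did not pass (limma adjusted p = 0.220). CAB2 adjoins the near-identical CAB1 and CAB3, and its values are uncertain for that reason. Of the 23 photosynthesis genes, 9 had lower H3K4me3 in apices, against 4.37% of all genes tested, and only RBCS3B of those 9 lay on a region. PnsB3, a subunit gene of the chloroplast NAD(P)H dehydrogenase complex, had 80.9% of its body in a region and differed by -0.69 ± 0.16 (limma adjusted p = 0.0612, and 0.0417 with the replicate block).

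Leaf development was represented by TCP10 and STOMAGEN. TCP10, a miR319-regulated transcription factor gene that promotes leaf maturation, had H3K4me3 of 154 and 149 RPM in leaf, 71.3 and 73.2 at apex t0, 68.7 and 86.5 at apex t2, and 136 and 110 in inflorescence. The apex values lay below all others, a difference of -0.86 ± 0.11 (limma adjusted p = 0.0104, lost without leaf replicate 1, apex t0 replicate 1 or apex t2 replicate 1). Its H3K27me3 was graded rather than apex-only: 46.9 and 0 RPM in leaf, 196 and 211 at apex t0, 214 and 201 at apex t2, and 131 and 132 in inflorescence. Only 11.2% of its body, at the edge of that domain, lay in a region.

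STOMAGEN (EPFL9), which encodes a secreted peptide of leaf mesophyll that promotes stomatal formation, had 59.5% of its body in a region and H3K27me3 of 45.9 to 79.8 RPM in apices alone. Its H3K4me3 was 24.8 and 21.5 RPM in leaf, 0 and 13.0 at apex t0, 0 and 0 at apex t2, and 28.1 and 31.5 in inflorescence. The 4 apex values lay below the other 4, and the test did not pass (limma adjusted p = 0.0612), whereas it did with the replicate block (0.0476).

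The largest lower calls with a symbol and with H3K4me3 in all 8 libraries were at ATBETAFRUCT4, UMAMIT46 and GATL10. ATBETAFRUCT4, a vacuolar invertase gene, had 122 and 73.5 RPM in leaf, 32.8 and 37.9 at apex t0, 31.8 and 32.1 at apex t2, and 102 and 60.0 in inflorescence. The groups did not overlap, and the difference was -1.34 ± 0.22 (limma adjusted p = 0.0230). GATL10, of a family related to the galacturonosyltransferases of pectin synthesis, differed by -1.12 ± 0.15 (limma adjusted p = 0.0100), and UMAMIT46, of a family of amino acid transporters, by -1.16 ± 0.22 (limma adjusted p = 0.0318). The call at ATBETAFRUCT4 ended without any library except leaf replicate 2 and inflorescence replicate 2. That at UMAMIT46 ended without any except leaf replicate 2 and apex t0 replicate 2, and that at GATL10 without leaf replicate 1 or either apex t2 replicate. The latter 2 calls also ended with islands of fold 2 or more. AMI1, an auxin-related amidase gene with 79.3% of its body in a region, differed by -0.81 ± 0.29 (limma adjusted p = 0.185).

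**Figure D4:**
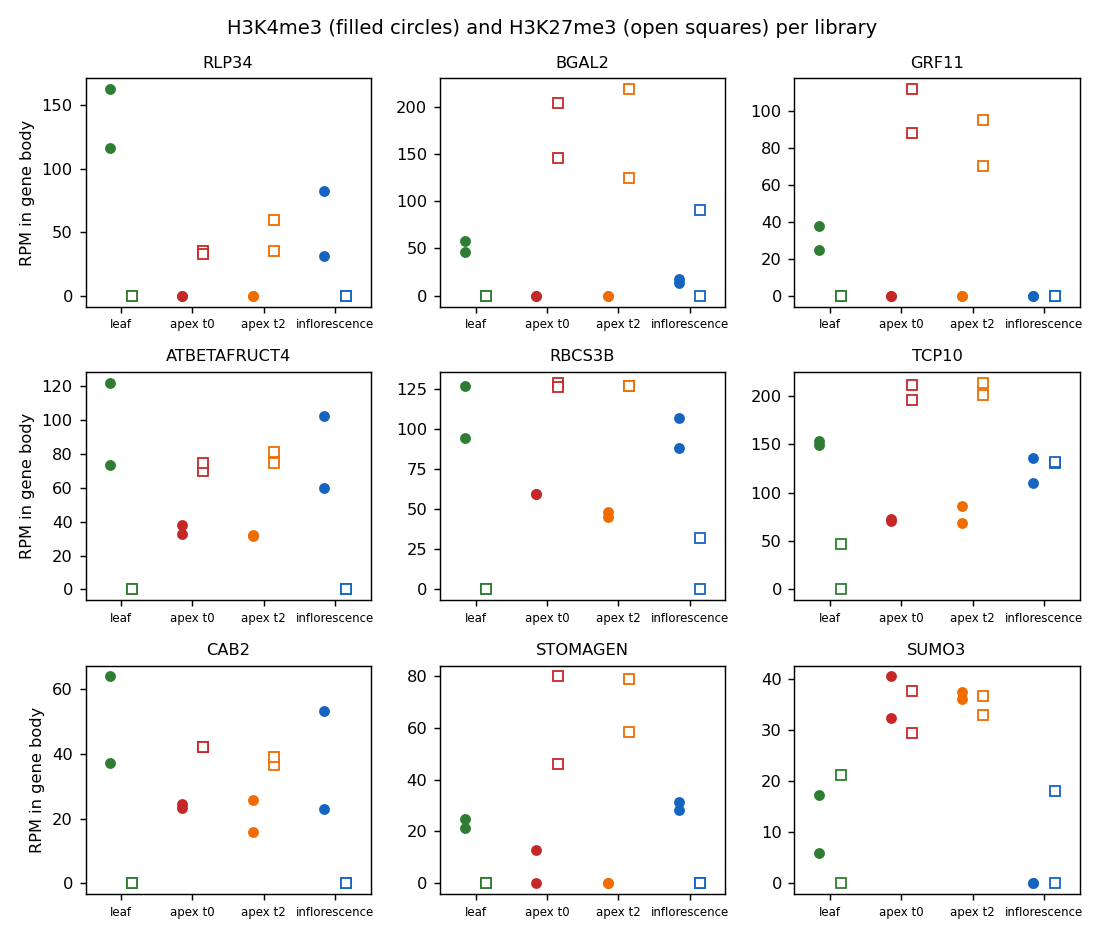
H3K4me3 (filled circles) and H3K27me3 (open squares) in RPM over the gene body (vertical axes) at the 4 stages (horizontal axes), 1 point per library, for 9 genes on the regions. H3K27me3 is highest in the apex libraries in every panel, and H3K4me3 is lower there than in leaf except at SUMO3, where apices reach 32.4 to 40.6 RPM.

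Another 4 lower genes were picked out after their values were seen. RPP8, a disease resistance gene with similar copies nearby, had 147 and 121 RPM of H3K4me3 in leaf, 55.8 and 58.7 at apex t0, 60.7 and 62.4 at apex t2, and 100 and 78.3 in inflorescence (limma adjusted p = 0.00897). The region on RPP8 itself held no H3K4me3 in any library, and its apex H3K27me3 islands had a median fold over control of 1.36. RIPK, a kinase gene of the immune response, had 57.3 to 73.2 RPM in apices against 96.3 to 140 in the wild-type tissues (limma adjusted p = 0.00896). PSBQ-2, an oxygen-evolving complex subunit gene, had 42.9 to 55.2 against 75.3 to 149 RPM (limma adjusted p = 0.0228). GTL1, a trihelix transcription factor gene, had 72.0 to 118 against 160 to 211 RPM (limma adjusted p = 0.0316). In none of these 4 did the groups overlap. Other members with roles in immunity did not pass, among them RPP1 (-0.06, limma adjusted p = 0.905), WRKY70 (-0.35, 0.332) and RBOHD (-0.38, 0.318). The call at RIPK ended without apex t2 replicate 1, and that at RPP8 without apex t0 replicate 1 or either apex t2 replicate. The call at PSBQ-2 ended without any apex or inflorescence library, and that at GTL1 without any library except leaf replicate 2; RPP8 and GTL1 were also lost with islands of fold 2 or more.

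The 4 genes with higher H3K4me3 in apices were SUMO3, AT2G34060, AT3G22940 and AT3G25719. SUMO3, a ubiquitin-like modifier gene, had 17.3 and 5.95 RPM in leaf, 32.4 and 40.6 at apex t0, 36.2 and 37.6 at apex t2, and none listed in inflorescence (limma adjusted p = 0.0137, lost without any 1 of the 4 apex libraries). H3K27me3 over SUMO3 was 29.4 to 37.8 RPM in apices, with 21.3 in leaf replicate 2 and 18.1 in inflorescence replicate 2 on another stretch. Both marks were thus higher in apices at this gene. AT3G22940 had 89.3% of its body in regions, with H3K4me3 of 8.55 to 19.7 RPM in apices and none listed elsewhere (limma adjusted p = 0.0125). AT2G34060 had 28.9 to 64.5 RPM in apices, 13.8 and 18.6 in inflorescence and none in leaf (limma adjusted p = 0.0125). The calls at these 2 genes and at AT3G25719 ended without either apex t2 replicate. Those of the first 2 also ended with islands of fold 2 or more, that of AT2G34060 without apex t0 replicate 2, and that of AT3G25719 without leaf replicate 1 or either apex t0 replicate. AT3G22940 and AT3G25719 entered the test only through the apices, so their p-values are no independent support.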

How the data were processed

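Each library came as a table of islands from SICER 1.1, which joins enriched windows into broad domains, with read counts, p-values and fold over control as deposited by the authors. Per the submitters' processing notes, the tools named are bedtools 2.17.0-97, Picard 1.93, SAMtools 0.1.19, BWA 0.6.2-r126 and CASAVA 1.8.2, with the TAIR10 build; SICER's settings are not given in the sources used here. Replicates were not pooled. Control reads on islands of the same bounds were identical within leaf and inflorescence, and within the apex stages, of a replicate and mark (659 of 659 and 3399 of 3399 for H3K27me3 replicate 1), so those pairs shared a control. The 6 input samples were not analysed here.

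An island's reads were shared out over RefSeq gene bodies (TAIR10.1, names only; the best offset against the islands was 0 bp on all 5 chromosomes), scaled to reads per 1000000 on tested genes (RPM) with trimmed-mean (TMM) factors (trims of 30% and 5%), and fitted as log2(RPM + 1) in limma 3.58.1 (R 4.3.3, trend, robust, 4 stage means, 4 residual degrees of freedom). H3K27me3 RPM were scaled in the same way on genes marked in both replicates of some stage. Genes needed islands over 200 bp in both replicates of a stage. Calls used an adjusted p under 0.05, two-sided. The pseudocount understates fold changes of low genes. A gene under the island threshold counts as 0 RPM, which can overstate a difference. SEs pool all stages. Depth was read from islands, as total reads are unknown.

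Per the labels' protocols, replicate numbers mark different sonication, antibody lots and library preparation, so they pair the samples. Deviations of same-numbered libraries correlated at 0.23 to 0.45 in all 6 stage pairs. The main fit did not use this pairing, and the replicate block was set as an alternative. The block called 57 genes on the regions in the joint comparison, against 40 in the main fit. Genes were named by rule: those on the 15 widest regions (4 of the 10 tied at 2200 bp, in genome order), the 8 largest calls per direction with a symbol, members of the lists, and the 8 with the largest share of the body in regions. The regions and lists were chosen with earlier results of these data known. No sequences or promoter motifs were used.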

Additional observations from a re-analysis of the deposited data

How the results depend on the processing

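Islands were called per library, so absence follows depth as well as the mark. The number of regions was 661 at a minimum width of 200 bp, 209 at 800 bp, and 426 to 1336 when a library was left out. Genes on the regions numbered 55 with at least 50% of the body inside, 122 without any leaf or inflorescence island, and 197 to 639 with a library left out. Genes called for both apices against leaf and inflorescence (40) numbered 26 with H3K4me3 islands of fold 2 or more, 26 among genes marked in all 8 libraries, and 12 to 50 with a library left out. For apex t0 against leaf (32) these were 21, 20 and 1 to 36. For apex t2 against inflorescence (8, against 1.17%) there were 5 with a pseudocount of 5, against 0.711%. Without the filter on genes there were 3, against 0.274%, and with islands of fold 2 or more 5, against 1.79%. Genes without any leaf or inflorescence island gave 4, and genes marked in all 8 libraries gave 2, against 0.218% of all those marked. With any library but leaf replicate 1 left out, these calls were lost, and nearly all of those over all genes with them. Apex t2 against apex t0 gave 0 throughout, also over all genes. The replicate block gave 57, 45, 6 and 0, against 11.8%, 13.6%, 0.722% and 0% of all genes. It changed no other call named here than those given in the report. Regions with H3K4me3 in some library numbered 149 and stayed at 129 to 149. For the 25 named genes tested, 282 of 349 alternatives kept direction and call, 54 lost and 8 gained the call. The 5 reversals were all of genes not called: scpl10 (-2.69 to 0.01 with a library left out, above 0 without leaf replicate 2), FP3 (-0.61 to 0.04, above 0 without apex t0 replicate 1 or inflorescence replicate 2, where it was 0.01), and, with islands of fold 2 or more, CYP71B34 at 0.88 and CYP71B35 at 1.16. The causes were not tested. The alternatives restricted to genes without wild-type islands or marked in all 8 libraries, and those for H3K4me3 at the regions, were chosen after seeing the data. Reads over the first 1000 bp of a gene were not run, as gene strand was not used here.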

Other observations

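The regions were unevenly spread over the chromosomes: 137 lay on chromosome 1 (32.7%, which holds 27.6% of the windows marked in all 4 apex libraries) and 39 on chromosome 4 (9.31%, against 15.4%). Within 1 Mb of CAL lay 19 regions (4.53%, against 2.53% of the windows) and within 1 Mb of AP1 lay 20 (4.77%, against 2.47%); both genes are mutated in the apices and both are on chromosome 1. Of the 363 regions absent only from apices, 10 (2.75%) lay near CAL and 9 (2.48%) near AP1. The densest bin of 1 Mb, with 14 regions, spanned 23 to 24 Mb of chromosome 1. These places were looked at after the data were seen, and the part of any sequence carried along with the mutant alleles was not tested.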
